A study of Mus musculus with 8 samples.

Results

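Glycolysis and hypoxia response genes were followed in E14 ESCs, a mouse embryonic stem cell line, in which expression of Sox2, hnRNPK or Cdk9 was suppressed by shRNA. The 40 genes were taken from a named list, and the list was matched by symbol to 40 of the 55335 genes of the count table. They comprised 4 glucose and lactate transporters, 9 genes of upper glycolysis, 6 of lower glycolysis, 5 that act on pyruvate and lactate, 2 fructose bisphosphate switch enzymes, 3 oxygen sensing genes and 11 hypoxia response genes. The 8 poly(A) RNA libraries formed 4 groups of 2 replicates: a negative control shRNA (control), Sox2 knockdown (Sox2-KD), Hnrnpk knockdown (hnRNPK-KD) and Cdk9 knockdown (Cdk9-KD). All groups were E14 cells infected with lentivirus, including the control group, and the labels give no time after infection and no shRNA clone for a library. The study's methods state that its shRNA knockdown experiments ended after 5 days of puromycin selection. The replicates were described as biological duplicates, with no statement of separate culture days. SOX2 is a pluripotency transcription factor, hnRNPK an RNA-binding protein and CDK9 the kinase of the elongation factor P-TEFb. The study compared these knockdowns to ask what part hnRNPK has in SOX2-dependent transcription and its elongation. Its main subject was alternative splicing shared by the Sox2 and Hnrnpk knockdowns, which gene counts do not measure.

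Glycolysis converts glucose, taken up through GLUT transporters, into pyruvate in the cytosol. Pyruvate is either reduced to lactate by lactate dehydrogenase and exported through monocarboxylate transporters, or enters the mitochondria, where pyruvate dehydrogenase kinases (PDKs) hold back its oxidation. When oxygen is low, the prolyl hydroxylases of the EGLN family no longer mark HIF1A for degradation, and HIF1A then raises many glycolytic genes along with genes for blood vessel growth, mitophagy and collagen hydroxylation. Naive mouse ESCs are known for using both glycolysis and respiration.

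Each library held 16709201 to 17719366 counts, and the 40 genes took 1.30% to 1.90% of them. All 40 passed the filter on low counts and were among the 16504 genes tested. Levels are given as CPM, counts scaled to a common library size by TMM normalization. Sox2 was at 412 and 530 CPM in control and at 320 and 284 CPM in Sox2-KD (log2FC -0.64, adjusted p = 0.0479, edgeR). Cdk9 was at 109 and 129 CPM in control and at 73.1 and 53.2 CPM in Cdk9-KD (log2FC -0.91, adjusted p = 0.0985). Hnrnpk was at 1094 and 1131 CPM in control and at 697 and 1144 CPM in the 2 libraries labelled as hnRNPK-KD, so that the second of them was not below control. Values under the hnRNPK-KD label therefore refer to the label alone. By Western blot and qRT-PCR the paper reported lower hnRNPK in its knockdown cells. It does not say whether these libraries came from those cells. The 12 ESC markers all passed the filter on low counts, with Dppa3 at 7 to 158 counts. Their summed level was 7868 and 7865 CPM in control and 6642 and 7284 CPM in Sox2-KD. It was 8108 and 7889 CPM under the hnRNPK-KD label and 9452 and 8168 CPM in Cdk9-KD. Of the 12, 2 had a positive log2FC in Sox2-KD against control (median -0.22), and 1, Sox2 itself, was called. Against Cdk9-KD 3 of the 12 were called, all lower in Sox2-KD, with 7.33% of all genes called. Trophectoderm markers summed to 143 and 149 CPM in control, 241 and 375 CPM in Sox2-KD, 147 and 173 CPM under the hnRNPK-KD label and 142 and 143 CPM in Cdk9-KD. Against control, 1 of the 8 trophectoderm markers tested rose in Cdk9-KD and 1 fell. Eomes was at 333 and 241 counts there against 68 and 45 in control. Tfap2c was at 225 and 132 counts there against 771 and 751 in control. In Sox2-KD 5 of the 8 trophectoderm markers tested rose (Gata3, Eomes, Krt7, Krt8 and Krt18), while Elf5 stayed at 0 to 2 counts. Cdx2, which defines trophectoderm, was at 19.8 and 35.1 CPM in control and at 6.10 and 6.22 CPM in Sox2-KD (log2FC -2.15, adjusted p = 0.0521), and Tfap2c was at 43.4 and 43.02 CPM against 28.7 and 32.5 CPM (log2FC -0.50, adjusted p = 0.398). Of 8 primitive endoderm markers tested, 3 rose in Sox2-KD (Gata6, Dab2 and Sparc) and Lama1 fell, and the list summed to 384 to 402 CPM in control, 506 to 682 CPM in Sox2-KD and 454 to 547 CPM in the other 4 libraries. Foxa2 and Sox7 were at 0 to 6 counts. Fibroblast markers summed to 10.8 to 20.8 CPM over all libraries, with Twist2 at 0 counts in each, and 1 of 6 tested, Lum, rose in Sox2-KD. Col1a2 was at 32 and 24 counts in control and at 4 and 1 counts in Sox2-KD (log2FC -3.44, adjusted p = 0.0565). In bulk RNA, a change in the number of cells of a type and a change of RNA per cell cannot be told apart.

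The 40 genes were highly expressed, with a median average log2 CPM of 6.54 against 3.93 over all genes tested. Gapdh, the glyceraldehyde phosphate dehydrogenase, was at 2868 to 3930 CPM, and Pkm, the pyruvate kinase of growing cells, at 2049 to 3398 CPM. At the other end, the carbonic anhydrase Car9 was at 0.292 to 1.37 CPM. Between isozymes, compared as CPM per kb of exon, Hk2 supplied 73.9% to 85.7% of the hexokinase pair and Slc2a3 (GLUT3) 81.0% to 88.0% of the glucose transporter pair. The brain-type isozymes Aldoc and Eno2 were at most 1.32% of the aldolase pair and 0.915% of the enolase pair. In every library Hk2, Slc2a3, Aldoa and Eno1 led their pair, so the order of these isozymes was the same in all groups.

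**Figure D1:**
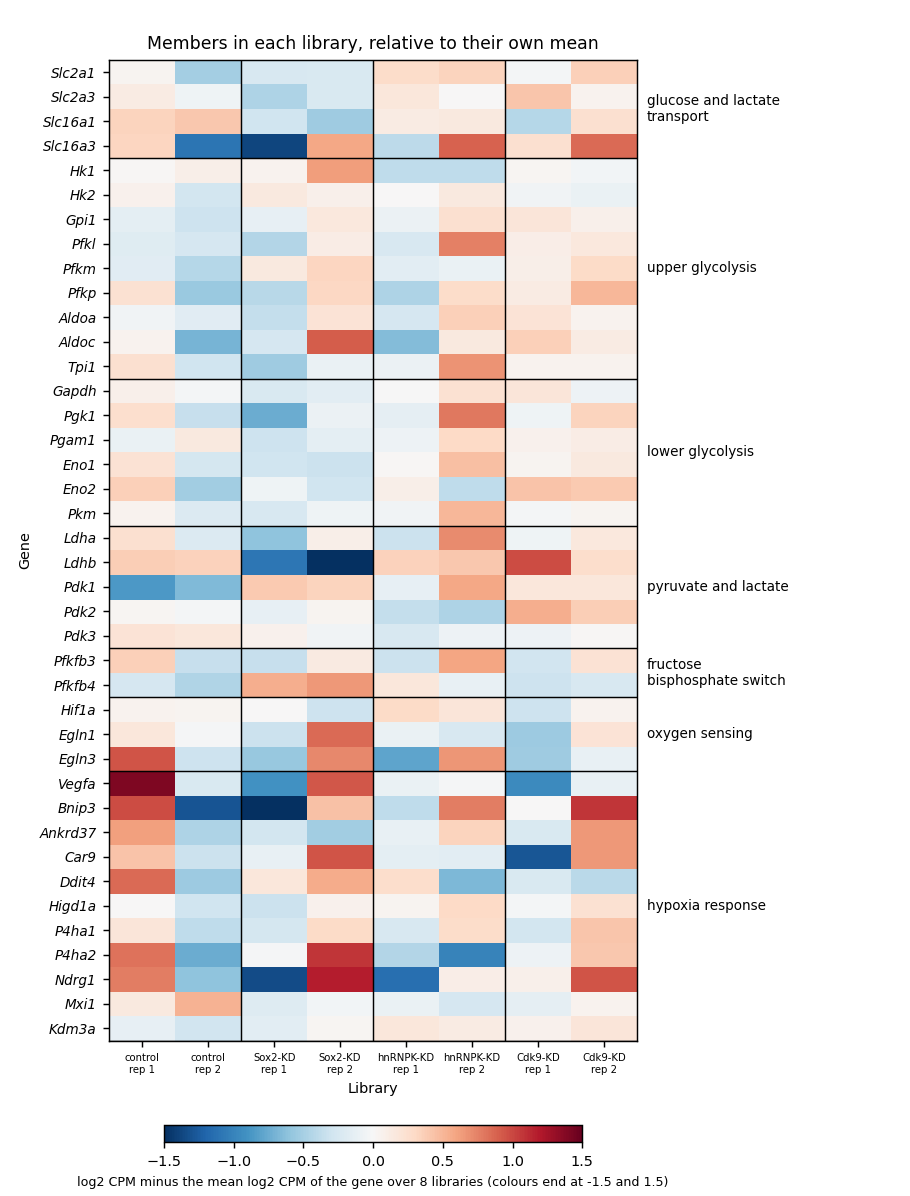
The heat map shows the level of each of the 40 genes (rows, ordered by role) in each of the 8 libraries (columns), as log2 CPM minus the mean of that gene over the libraries. Ldhb is low in both Sox2-KD libraries and Pdk1 in both control libraries, while Bnip3, Ndrg1 and Slc16a3 differ between replicates of the same group.

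Genes were called at an adjusted p below 0.05 (edgeR, quasi-likelihood test) with a log2FC beyond 0.6 in either direction. In Sox2-KD against control, 2 of the 40 genes were called, against 713 of all genes tested (4.32%): Ldhb fell and Pdk1 rose. In the hnRNPK-KD-labelled libraries no gene of the 40 was called, nor was any other gene (0%). In Cdk9-KD no gene of the 40 was called, against 23 of all genes (0.139%). DESeq2 called 1 of the 40, Pdk1, in each of the latter comparisons, with 74 and 221 of all genes called. At an unadjusted p under 0.05 the 40 genes gave 7, 5 and 4 genes in these comparisons, against 19.3%, 8.03% and 10.4% of all genes. A positive log2FC was seen in 19, 26 and 28 of the 40, and in 8557, 8649 and 8645 of the 16504 genes tested. The median log2FC of the 40 was -0.04, 0.10 and 0.10, with all genes at 0.02 in each case, and the first became 0.03 with library totals in place of TMM. The median in Sox2-KD depended on the libraries kept, at 0.25 without control replicate 1 and -0.25 without Sox2-KD replicate 2. The called share in Sox2-KD (2 of 40) was near the background. The 3 comparisons share the control libraries.

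The replicates of a group differed in these genes, and the differences bear on the comparisons with control. In control, 5 of the 40 genes were higher in replicate 2 than in replicate 1. The corresponding numbers were 31 in Sox2-KD, 29 under the hnRNPK-KD label and 28 in Cdk9-KD. Over all genes tested the shares were between 48.0% and 51.1%. The median log2 difference (replicate 2 minus replicate 1) was -0.32 in control, 0.33 in Sox2-KD, 0.24 under the hnRNPK-KD label and 0.15 in Cdk9-KD.

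In 16 of the 40 genes (40%), replicate 1 was above replicate 2 in control and below it in each of the other 3 groups, against 780 of all genes (4.73%). A difference over 0.3 on the log2 scale in all 4 groups was seen in 8 of the 40 genes (20%) against 0.715% of all genes. This direction was set after the values of the 40 genes had been seen, and the shares are a description of these libraries. Bnip3, a mitophagy receptor, led with 39.0 and 8.02 CPM in control, 6.54 and 26.8 CPM in Sox2-KD, 15.1 and 33.7 CPM under the hnRNPK-KD label and 19.8 and 41.4 CPM in Cdk9-KD. Ndrg1, a stress response gene, was at 17.3 and 6.70 CPM in control, 4.01 and 23.0 CPM in Sox2-KD, 4.63 and 10.9 CPM under the hnRNPK-KD label and 10.7 and 19.6 CPM in Cdk9-KD. The other 6 were Slc16a3, P4ha1, Pfkfb3, Egln3, Pgk1 and Pfkp. Reads of Bnip3 could be shared with 5 near-identical copies, whose counts came to 4.14% to 31.9% of its own. Among 35 tested genes of another hypoxia response list the same direction in all groups was seen in 5 (14.3%): Hif3a, Bhlhe40, Ero1l, Stc2 and Loxl2. It was seen in 1 of 20 genes of another glycolysis list, Adpgk.

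**Figure D2:**
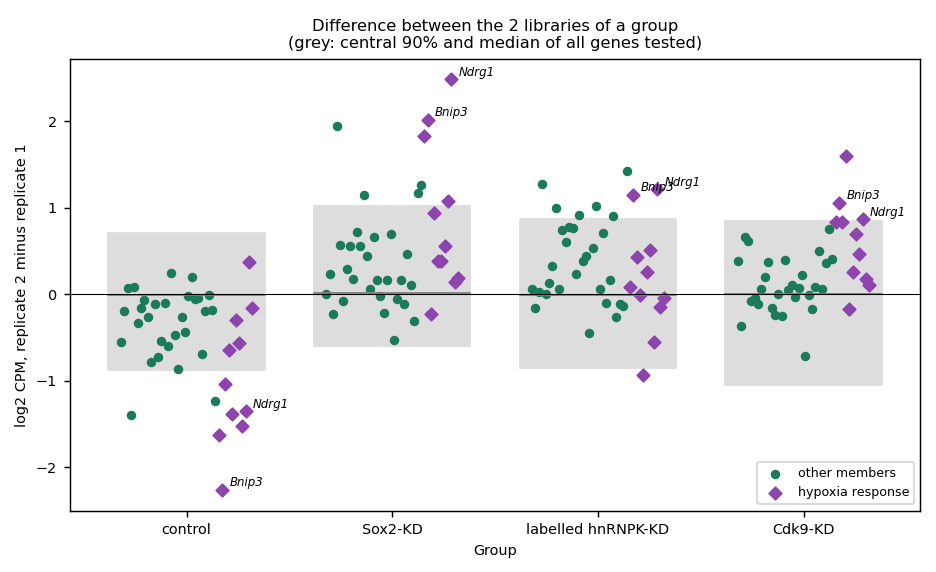
The plot gives the log2 CPM of replicate 2 minus that of replicate 1 (vertical axis) in each group, with a diamond for each of the 11 hypoxia response genes, a circle for each other gene of the 40, and a grey band for the central 90% of all genes tested. Of the 11 hypoxia response genes, 10 lie below 0 in control, while 10 lie above 0 in Sox2-KD, 6 under the hnRNPK-KD label and 10 in Cdk9-KD.

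The pyruvate and lactate genes held both calls in Sox2-KD. Lactate dehydrogenase is a tetramer of LDHA and LDHB subunits, the former associated with lactate production and the latter with lactate use. Ldhb (chromosome 6, 142490249 to 142507957, minus strand, GRCm38) was at 210.3 and 207.8 CPM in control, 76.7 and 53.3 CPM in Sox2-KD, 207.4 and 215.5 CPM under the hnRNPK-KD label and 321.6 and 195.7 CPM in Cdk9-KD. Both Sox2-KD libraries lay below each of the other 6. Ldhb was 3.22-fold lower in Sox2-KD than in control, at 65.0 ± 16.6 against 209 ± 1.76 CPM (SD, n = 2), with a log2FC of -1.69 (SE 0.236, adjusted p = 0.00533, edgeR). Its call against control held with each library left out in turn, with log2FC from -1.98 to -1.45 and adjusted p from 0.00283 to 0.0494.

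Ldha (chromosome 7, 46841475 to 46855627, plus strand) was at 894 and 658 CPM in control, 496 and 805 CPM in Sox2-KD, 607 and 1236 CPM under the hnRNPK-KD label and 724 and 846 CPM in Cdk9-KD. Its groups overlapped, and its log2FC in Sox2-KD was -0.25 (SE 0.313, adjusted p = 0.712). Per kb of exon, Ldhb made up 33.2% and 39.96% of the lactate dehydrogenase pair in control and 24.6% and 12.2% in Sox2-KD. In the hnRNPK-KD-labelled libraries it made up 41.9% and 26.9%, and in Cdk9-KD 48.4% and 32.8%. The lowest shares of Ldhb were thus in the Sox2-KD libraries.

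Pdk1 (chromosome 2, 71873224 to 71903858, plus strand), which phosphorylates and inhibits the pyruvate dehydrogenase complex, was at 69.9 and 80.1 CPM in control. It was at 166.6 and 160.4 CPM in Sox2-KD, 117.3 and 191.0 CPM under the hnRNPK-KD label and 143.7 and 143.1 CPM in Cdk9-KD. Both control libraries lay below all 6 others. Pdk1 was 2.18-fold higher in Sox2-KD than in control, at 163 ± 4.41 against 75.01 ± 7.26 CPM (SD, n = 2), with a log2FC of 1.12 (SE 0.206, adjusted p = 0.0153). This call was lost when either control library or either Sox2-KD library was left out, with log2FC from 1.01 to 1.22 and adjusted p from 0.0619 to 0.122. The log2FC was 1.04 (SE 0.205, adjusted p = 0.282) under the hnRNPK-KD label and 0.93 (SE 0.205, adjusted p = 0.155) in Cdk9-KD. The edgeR quasi-likelihood test called neither, while DESeq2 and the edgeR likelihood ratio test called both. All 3 contrasts rest on the same 2 control libraries. Pdk2 and Pdk3, the other kinases of the family measured here, gave log2FC of -0.05 and -0.18 in Sox2-KD and were not called. Pdk1 made up 40.8% and 45% of the 3 kinases per kb of exon in control and 60.3% to 70.2% in the 6 knockdown libraries.

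**Figure D3:**
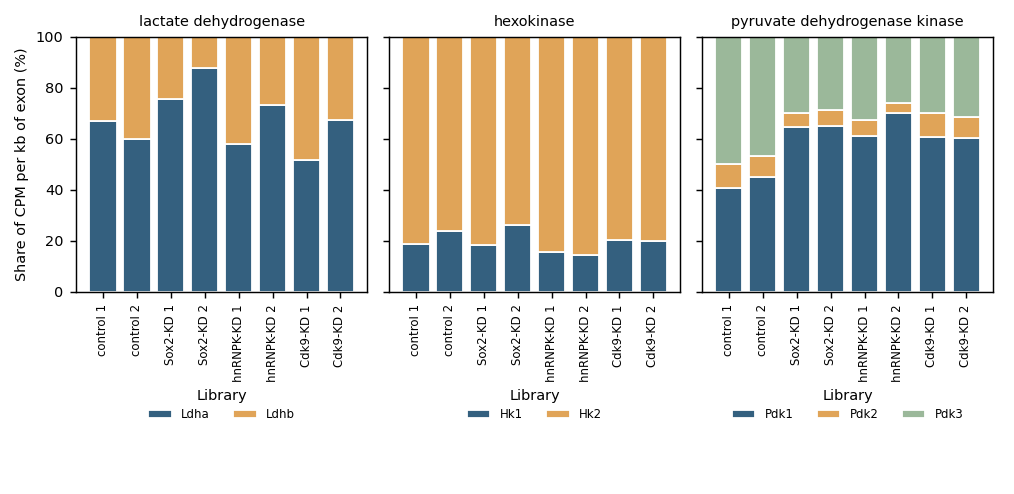
Stacked bars give the share (%) of CPM per kb of exon taken by each isozyme of lactate dehydrogenase, the hexokinase pair and the pyruvate dehydrogenase kinases in each of the 8 libraries. Ldhb has its smallest shares in Sox2-KD, 24.6% and 12.2%, and Pdk1 its smallest in control, 40.8% and 45%.

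The promoters of the lactate dehydrogenase pair and of Pdk1 are shown because HIF1A acts through a short core sequence, the hypoxia response element (HRE), and because both called genes are among them. Each is the 250 bases before the RefSeq start (GRCm38.p6), 5′ to 3′ on the strand of the gene, with capitals at matches to the HRE core ACGTG or GCGTG on either strand.

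Ldha promoter, chr7:46845554-46845803, plus strand: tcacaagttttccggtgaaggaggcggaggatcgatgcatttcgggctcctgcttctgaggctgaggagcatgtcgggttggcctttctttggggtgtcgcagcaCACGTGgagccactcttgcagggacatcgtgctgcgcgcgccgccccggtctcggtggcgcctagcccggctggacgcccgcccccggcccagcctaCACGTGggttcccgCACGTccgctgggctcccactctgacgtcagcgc
Ldhb promoter, chr6:142507958-142508207, minus strand: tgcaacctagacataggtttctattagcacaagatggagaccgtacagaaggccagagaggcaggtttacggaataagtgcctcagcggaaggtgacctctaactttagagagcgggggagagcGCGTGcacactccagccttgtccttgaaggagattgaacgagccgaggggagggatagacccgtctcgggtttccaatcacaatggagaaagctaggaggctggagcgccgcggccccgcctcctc
Pdk1 promoter, chr2:71872974-71873223, plus strand: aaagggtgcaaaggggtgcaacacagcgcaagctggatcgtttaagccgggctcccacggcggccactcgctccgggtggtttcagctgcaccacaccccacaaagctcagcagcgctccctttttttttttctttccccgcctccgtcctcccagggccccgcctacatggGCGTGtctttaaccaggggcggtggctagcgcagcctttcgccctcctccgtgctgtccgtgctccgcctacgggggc

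The Ldha window held 3 matches, where the palindrome CACGTG was counted as 1 match although it reads on both strands, and the Ldhb and Pdk1 windows held 1 each. The RefSeq start of Ldha lies within the span that GENCODE gives the gene, 4329 bases from its GENCODE start. Of the 40 genes, 38 had a promoter in the RefSeq table, and 30 of those (78.9%) held at least 1 core, against 54.3% of 14278 promoters of tested genes and 38.6% of all 32851 promoters. At least 2 cores were found in 44.7% of the 38, 22.6% of those of tested genes and 13.5% of all. The core ATTGTT of SOX factors, searched on both strands, was in 2 of the 38 (5.26%), in 5.35% of the promoters of tested genes and in 9.42% of all. The list was named for the hypoxia response, so its higher share of HRE cores is a description only. For each of the 38 genes only the RefSeq start nearest the GENCODE start was used. The bases after that start were found in a GENCODE transcript of the gene for 29 of the 38, with Ldha not among them. The sets beside them held every RefSeq start of a gene, so the shares are not like for like. Such matches are letters in a window and show no binding.

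Among the transporters, Slc16a1 (MCT1, a lactate and pyruvate carrier) was at 225 and 236 CPM in control, 144 and 123 CPM in Sox2-KD, 194 and 197 CPM under the hnRNPK-KD label and 132 and 210 CPM in Cdk9-KD. Neither Sox2-KD library reached the control levels, with a log2FC of -0.79 (SE 0.199, adjusted p = 0.0527), just outside the threshold, and DESeq2 called it. Slc2a3 had a log2FC of -0.38 (adjusted p = 0.237) and Slc2a1 (GLUT1) of -0.03 (adjusted p = 0.95). Slc16a3 (MCT4, a lactate exporter) was at 30.0 and 11.3 CPM in control and at 9.23 and 35.8 CPM in Sox2-KD. It was at 18.3 and 44.5 CPM under the hnRNPK-KD label and at 28.3 and 43.3 CPM in Cdk9-KD, and all groups overlapped (log2FC in Sox2-KD 0.12, SE 0.609).

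No gene of upper glycolysis was called in Sox2-KD against control, where 8 of the 9 had a positive log2FC, with a median of 0.20. The genes and their log2FC ran from Tpi1 (triose phosphate isomerase, -0.30) to Aldoc (0.72, SE 0.409), with Hk2, Gpi1, Pfkl, Pfkp and Aldoa between 0.05 and 0.25. Aldoc was at 9.40 and 5.61 CPM in control, 7.64 and 17.1 CPM in Sox2-KD, 5.80 and 10.1 CPM under the hnRNPK-KD label and 11.7 and 9.88 CPM in Cdk9-KD, so that Sox2-KD overlapped control. Pfkp shares 748 bases with Pitrm1 on the opposite strand, so its counts are uncertain. Pfkm, a phosphofructokinase subunit, was at 57.0 and 47.5 CPM in control and at 70.8 and 79.9 CPM in Sox2-KD (log2FC 0.53, adjusted p = 0.0909). Hk1, the hexokinase found in most tissues, was at 144.0 and 152.2 CPM in control and at 147.6 and 219.5 CPM in Sox2-KD, where replicate 2 alone stood above both control libraries (log2FC 0.31, adjusted p = 0.389). In Cdk9-KD Hk1 was at 145.5 and 138.1 CPM.

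All 6 genes of lower glycolysis had a negative log2FC in Sox2-KD, from -0.37 to -0.08 with a median of -0.23, and none was called or passed an unadjusted p under 0.05. Gapdh, often used as a reference gene, was at 3518 and 3282 CPM in control and at 2868 and 2996 CPM in Sox2-KD, below control in both libraries (log2FC -0.21, adjusted p = 0.475). Pgk1 (phosphoglycerate kinase) was at 709 and 469 CPM in control and at 354 and 560 CPM in Sox2-KD, so that the groups overlapped. Eno2 and Pkm also overlapped between Sox2-KD and control. Gapdh was at 3343 and 3930 CPM under the hnRNPK-KD label and at 3808 and 3188 CPM in Cdk9-KD. The counts of Eno1 are uncertain, since near-identical copies held 20.03% to 22.4% as many counts, and those of Gapdh could be shared with 78 copies at 0.638% to 0.751%.

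Of the switch enzymes that set fructose 2,6-bisphosphate, Pfkfb4 was at 5.57 and 4.87 CPM in control, 9.67 and 10.4 CPM in Sox2-KD, 7.45 and 6.17 CPM under the hnRNPK-KD label and 5.37 and 5.62 CPM in Cdk9-KD. Both Sox2-KD libraries lay above the other 6, with a log2FC of 0.94 (SE 0.254, adjusted p = 0.0638). The edgeR quasi-likelihood test did not call it, while DESeq2 and the edgeR likelihood ratio test did. Pfkfb3 had a log2FC of -0.13 (adjusted p = 0.889).

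**Figure D4:**
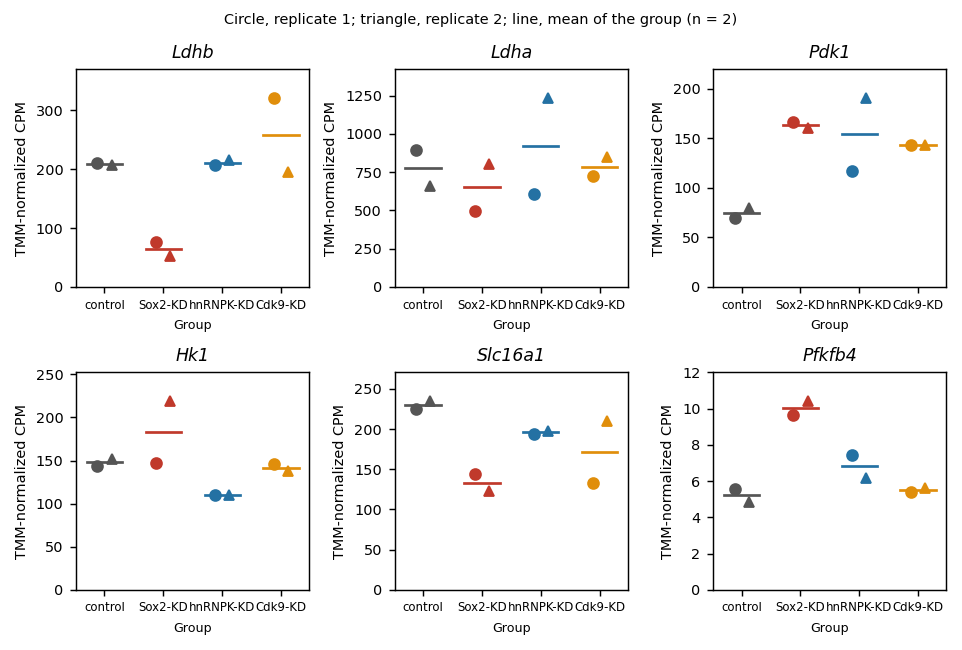
Each panel gives the TMM-normalized CPM (vertical axis, from 0) of 1 gene in the 4 groups, with a circle for replicate 1, a triangle for replicate 2 and a line for the mean of the 2. Ldhb lies lowest in Sox2-KD (76.7 and 53.3 CPM), Pdk1 lowest in control (69.9 and 80.1 CPM), and the Ldha groups overlap.

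Oxygen sensing genes were not called in Sox2-KD. Hif1a, the HIF subunit whose protein is controlled by oxygen, was at 136.9 and 136.1 CPM in control and at 132.3 and 106.3 CPM in Sox2-KD (log2FC -0.19, adjusted p = 0.576). It was at 161.4 and 149.4 CPM under the hnRNPK-KD label and at 106.7 and 137.6 CPM in Cdk9-KD, so that its mRNA stayed within 106.3 to 161.4 CPM throughout. Egln1 and Egln3, the hydroxylases, gave log2FC of 0.30 and -0.23. Egln3 was at 9.57 and 4.01 CPM in control, 3.35 and 8.22 CPM in Sox2-KD, 2.87 and 7.92 CPM under the hnRNPK-KD label and 3.45 and 4.61 CPM in Cdk9-KD.

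None of the 11 hypoxia response genes was called either, with a median log2FC of 0.06 and a range from -0.57 to 0.40. Vegfa, the vascular growth factor, was at 75.5 and 24.4 CPM in control and at 15.2 and 54.5 CPM in Sox2-KD. Its log2FC of -0.52 (SE 0.564, adjusted p = 0.671) became 0.49 without control replicate 1 and -1.72 without Sox2-KD replicate 2. Ddit4, an inhibitor of mTORC1, was at 59.8 and 22.9 CPM in control and at 37.5 and 48.8 CPM in Sox2-KD, at 39.8 and 20.8 CPM under the hnRNPK-KD label and at 28.4 and 25.2 CPM in Cdk9-KD, and was called in no comparison. P4ha2, a collagen prolyl hydroxylase subunit gene, was at 12.1 and 4.12 CPM in control and 6.81 and 14.5 CPM in Sox2-KD. The others were Bnip3 (-0.50), Ankrd37 (-0.57), Car9 (0.40), Higd1a (0.02), P4ha1 (0.11), Ndrg1 (0.17) and Kdm3a (0.14). Mxi1, a MYC antagonist, was the only one of the 11 with an unadjusted p under 0.05 (log2FC -0.46, adjusted p = 0.182).

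**Figure D5:**
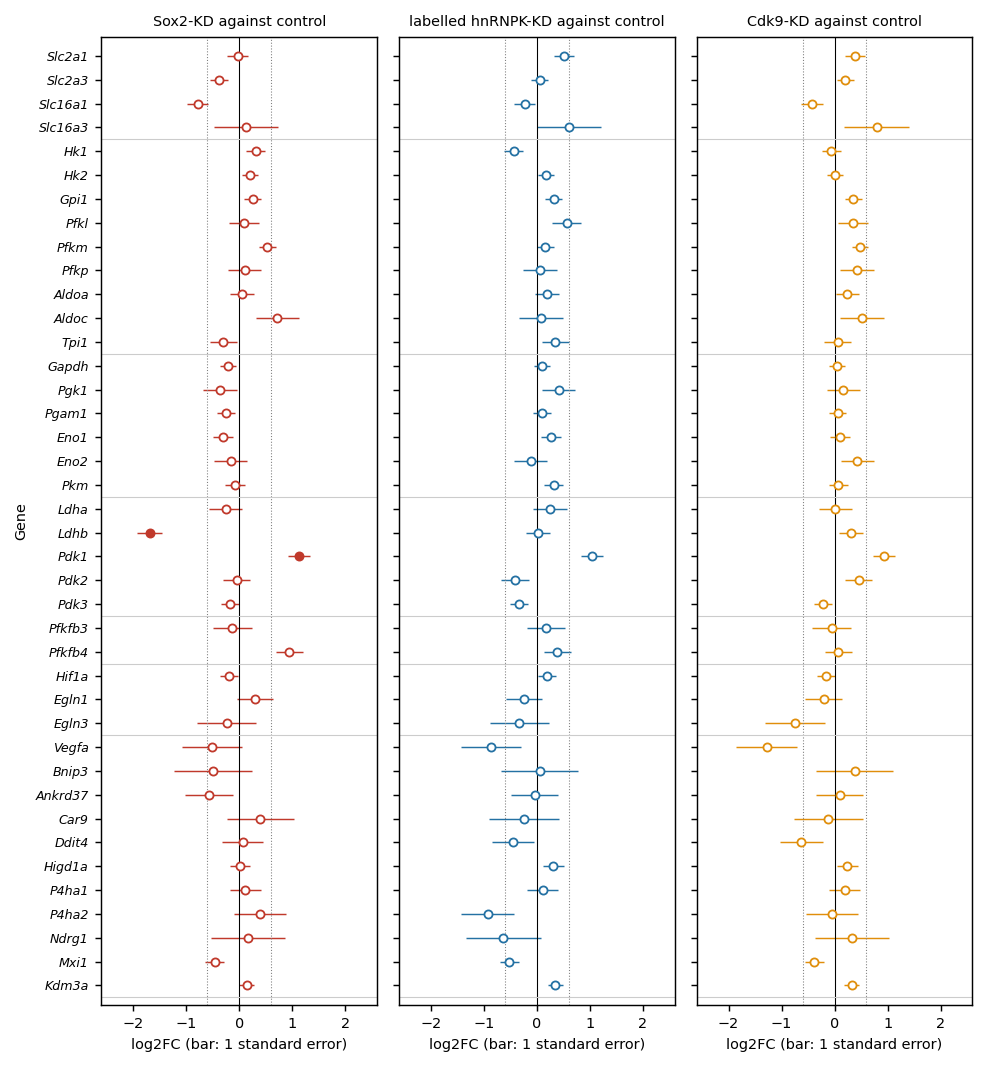
Points give the log2FC of each of the 40 genes (rows, ordered by role) against control in Sox2-KD, the hnRNPK-KD-labelled libraries and Cdk9-KD, with bars of 1 standard error, filled points for called genes and dotted lines at -0.6 and 0.6. Ldhb (-1.69) and Pdk1 (1.12) are the filled points, both in Sox2-KD.

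In the hnRNPK-KD-labelled libraries, Pdk1 was the gene of the 40 with the largest log2FC against control (1.04, above). By group, 8 of 9 genes of upper glycolysis and 5 of 6 of lower glycolysis had a positive log2FC, with medians of 0.18 and 0.18. Hk1 was the upper glycolysis gene on the other side, at 109.6 CPM in each library against 144.0 and 152.2 CPM in control (log2FC -0.43, SE 0.179, adjusted p = 0.585). Slc2a1 was at 243 and 254 CPM against 208 and 142 CPM in control (log2FC 0.51, adjusted p = 0.546). Kdm3a, a histone demethylase induced by HIF1A, gave 0.35 and Mxi1 -0.52 (adjusted p = 0.574 and 0.511). Pfkl, Tpi1, Pgk1 and Ldha were each highest of the 8 libraries in replicate 2 of this group, the library in which Hnrnpk was not lower. So were Hk2, Gpi1, Aldoa, Gapdh, Pgam1, Eno1, Pkm, Pdk1, Slc16a3, Pfkfb3 and Higd1a. The remaining genes of the 40 were highest in another library. How many of all genes tested were highest in replicate 2 of this group was not counted. A relation to the level of Hnrnpk was not tested. Without replicate 2 of this group the median log2FC of the 40 genes went from 0.10 to -0.16, and without control replicate 1 it was 0.38.

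In Cdk9-KD, all 6 genes of lower glycolysis and 8 of 9 of upper glycolysis had a positive log2FC against control, with medians of 0.09 and 0.35 (7 of 9 with DESeq2-type size factors). None was called. Pfkm was at 68.1 and 78.1 CPM against 57.0 and 47.5 CPM in control (log2FC 0.48, adjusted p = 0.324). The prolyl hydroxylase gene Egln3 had a log2FC of -0.75 (SE 0.568), with control replicate 1 above the other libraries of the comparison. Vegfa was at 14.8 and 26.4 CPM, and at 26.6 and 28.3 CPM under the hnRNPK-KD label (log2FC in Cdk9-KD -1.28, SE 0.577, adjusted p = 0.479), and this difference was -0.28 when control replicate 1 was left out. The median log2FC of the 40 genes went from 0.10 to -0.09 without control replicate 2 and to 0.31 without control replicate 1.

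Sox2-KD was then set directly against each of the other knockdowns, which asks whether its differences are larger than theirs with no control library in the contrast. Against the hnRNPK-KD-labelled libraries, 2 of the 40 genes were called, with 5.9% of all genes called. Ldhb was 3.25-fold lower in Sox2-KD (log2FC -1.70, SE 0.236, adjusted p = 0.00473), and with Sox2-KD replicate 2 left out the log2FC was -1.47 (adjusted p = 0.0545). Hk1 was 1.67-fold higher (log2FC 0.74, SE 0.180, adjusted p = 0.0367). The Hk1 difference was 0.43 (adjusted p = 0.384) without Sox2-KD replicate 2, and its call was lost when either control library or either hnRNPK-KD-labelled library was left out (adjusted p from 0.0533 to 0.186). P4ha2, at 5.10 and 3.43 CPM under the hnRNPK-KD label and 6.54 and 9.11 CPM in Cdk9-KD, had a log2FC of 1.32 (SE 0.503, adjusted p = 0.158). All 6 genes of lower glycolysis and all 4 transporters had a negative log2FC, with medians of -0.37 and -0.51, although Eno2 turned positive when library totals replaced TMM. Over all genes tested, 8094 of 16504 had a positive log2FC. Of the 40, 12 had an unadjusted p under 0.05, against 21.3% of all genes.

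Against Cdk9-KD, 1 of the 40 genes was called, with 7.33% of all genes called. It was Ldhb, 3.98-fold lower in Sox2-KD (log2FC -1.99, SE 0.238, adjusted p = 0.00171), and the call held with each library left out in turn (log2FC from -2.31 to -1.57). Pfkfb4 had a log2FC of 0.87 (adjusted p = 0.0641) and Slc2a3 of -0.59 (adjusted p = 0.0571). The lower glycolysis genes and the transporters again all had a negative log2FC, with medians of -0.36 and -0.50, in a comparison that shares the Sox2-KD libraries with the one above. Over all genes tested, 7863 of 16504 had a positive log2FC. At an unadjusted p under 0.05 there were 3 of the 40, against 21.7% of all genes. Pdk1 did not pass in either, with log2FC of 0.08 (SE 0.202) and 0.19 (SE 0.203).

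Lists of neighbouring pathways were examined alongside, and the genes of these lists called only between knockdowns were named after their values were seen. Of 20 tested glycolysis genes outside the 40, 1 was called in Sox2-KD against control, with 4.32% of all genes called. Eno3, the muscle enolase, was at 6.31 and 5.27 CPM in control, 20.8 and 29.4 CPM in Sox2-KD, 5.10 and 3.61 CPM under the hnRNPK-KD label and 5.72 and 4.49 CPM in Cdk9-KD. It was 4.33-fold higher in Sox2-KD (log2FC 2.12, SE 0.285, adjusted p = 0.00454). Both Sox2-KD libraries lay above the other 6.

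Of 35 tested hypoxia genes outside the 40, 1 was called in Sox2-KD against control, with 4.32% of all genes called. It was Arnt2, a partner of HIF subunits and other bHLH-PAS factors. Arnt2 was at 5.29 and 3.78 CPM in control and at 11.6 and 14.3 CPM in Sox2-KD (log2FC 1.51, SE 0.312, adjusted p = 0.0246). Epas1, which encodes the alternative subunit HIF2A, was at 19.1 and 32.5 CPM in control and at 41.2 and 80.5 CPM in Sox2-KD (log2FC 1.24, adjusted p = 0.0665), and it was called against the hnRNPK-KD-labelled libraries and against Cdk9-KD (log2FC 1.54 and 1.52). In the same Sox2-KD libraries 5 of 8 trophectoderm and 3 of 8 primitive endoderm markers tested rose and Lama1 fell, as given above, and their part in these differences and in those of Ldhb was not tested.

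None of 10 genes for pyruvate entry into mitochondria and none of 7 tested pentose phosphate genes was called in any comparison with control. In Sox2-KD 4 and 0 of them had an unadjusted p under 0.05, against 19.3% of all genes. Dld, a subunit gene of the pyruvate dehydrogenase complex, fell against the hnRNPK-KD-labelled libraries (log2FC -0.62, adjusted p = 0.0379), at 71.7 and 70.9 CPM against 113 and 106 CPM. Pdp2, a phosphatase that opposes the PDKs, was higher in Sox2-KD than in Cdk9-KD (log2FC 1.06, adjusted p = 0.0191).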

How the data were processed

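The authors deposited 1 table of raw counts per gene, made, per the labels and the study's methods, from paired-end reads aligned to mm10 (GRCm38) with STAR (2.7.9a in the submitters' processing notes, which also name FastQC and featureCounts 2.0.1). The strand and multi-mapping settings are not given in the sources used here, so antisense and near-identical genes cannot be told apart. Gene names, lengths and copies came from a GENCODE annotation of the same build. Rows without a symbol held 0.00236% to 0.00426% of counts. Aldoa matched more than 1 row, and the row with most counts was used.

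Genes passing filterByExpr (minimum count 10, total 15) were tested with edgeR 4.0.16 (R 4.3.3): TMM, quasi-likelihood test, all 8 libraries in 1 fit with group as the term, Benjamini-Hochberg adjustment over 16504 genes. Standard errors are the absolute log2FC divided by the square root of F. P-values measure the spread between these libraries only. An exact permutation test of 2 against 2 libraries cannot reach 0.05 and was not used. Alternatives were DESeq2 1.42.0, other size factors and filters, a likelihood ratio test, only the compared libraries, a replicate block, and each library left out. Members and gene lists were chosen with earlier results of these data known. Values in every library were given for members called in any comparison, the 5 with the largest absolute log2FC in each comparison with control, Hif1a and Gapdh. Other members named with values were added after these were seen, and genes of other lists were named if called, except 1 that is not reported here. The scripts were tested on simulated counts. Near-identical copies were sought with blastn 2.17.0+ at 95% identity over 200 bases. Replicates of a group differed by far more than counting noise (chi-square per gene 17.2 to 31.3).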

Additional observations from a re-analysis of the deposited data

Results flagged for a closer look

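Differences against control were compared between knockdowns by testing the knockdowns directly against each other in edgeR, and 3 results for the 40 genes passed. Ldhb was lower in Sox2-KD than under the hnRNPK-KD label (log2FC -1.70, SE 0.236, adjusted p = 0.00473) and lower than in Cdk9-KD (log2FC -1.99, SE 0.238, adjusted p = 0.00171). Both Sox2-KD libraries lay below all 6 others. Hk1 was higher in Sox2-KD than under the hnRNPK-KD label (log2FC 0.74, SE 0.180, adjusted p = 0.0367), higher in 2 of 2 Sox2-KD libraries. The Hk1 difference was 0.43 without Sox2-KD replicate 2. Groups of 2 libraries were too small to test for a library far from its group.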

How the results depend on the processing

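With 2 libraries per group, 1 library can decide a value. Of the alternatives for single named genes, 1115 kept their side of the threshold or stayed within the spread, 48 moved by more, 15 newly passed, 12 no longer passed and none changed the direction of a called value. Part of this tally could hardly move. One alternative dropped only the limit on log2FC and kept the main fit, and others left out a library of a group outside the comparison. The tally is therefore no measure of robustness. With DESeq2, 4 of the 40 genes were called in Sox2-KD against control (1029 of all genes), 1 under the hnRNPK-KD label and 1 in Cdk9-KD against control, with 74 and 221 of all genes in the last 2. With the likelihood ratio test the numbers of the 40 were 4, 1 and 1, and 2 against Cdk9-KD, with 1350, 87, 279, 1690 and 1869 of all genes in the 5 comparisons. Pdk1 was the gene added under the hnRNPK-KD label and in Cdk9-KD, and Slc16a1 and Pfkfb4 those added in Sox2-KD against control. Without a filter 1 gene was called under the hnRNPK-KD label against control. Without a filter, or with only the compared libraries, 1 of the 40 was called in Sox2-KD against the hnRNPK-KD-labelled libraries, Hk1 being lost. With library totals 2 of the 40 were called against Cdk9-KD, Pfkfb4 being added. In Sox2-KD against the hnRNPK-KD-labelled libraries, library totals shifted the median of all genes by 0.108 (log2), that of the 40 genes from -0.10 to 0.0091 and the share of called genes that were higher from 66.9% to 78.3%.

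Leaving out each library in turn gave 144 to 840 genes called in Sox2-KD against control, with 1 to 3 of the 40, and 0 to 1 genes under the hnRNPK-KD label, with 0 of the 40. It gave 0 to 33 genes in Cdk9-KD against control, with 0 of the 40. Between knockdowns it gave 90 to 1100 genes against the hnRNPK-KD-labelled libraries, with 0 to 2 of the 40, and 337 to 1286 against Cdk9-KD, with 1 to 2. The lowest counts came without Sox2-KD replicate 2 in the 3 comparisons of Sox2-KD and without control replicate 2 in Cdk9-KD. The median log2FC of the 40 genes ranged from -0.25 to 0.25, from -0.16 to 0.38, from -0.087 to 0.31, from -0.39 to 0.12 and from -0.39 to -0.020 in the 5 comparisons, so that its sign in 4 of them depended on which library was kept. A group left with 1 library was assumed to vary like the other groups, and the cause of these shifts was not tested.

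The replicate numbers were not used to pair the samples, since the labels state no shared batch. Across all genes tested, the correlations of deviations between same-numbered libraries were 0.21, 0.12, -0.06, 0.04 and -0.22 in the 5 comparisons. These values cannot tell whether any libraries were handled together. Over the 40 genes, with the sign of the replicate difference turned in control, the replicate differences of control correlated with those of Sox2-KD, the hnRNPK-KD label and Cdk9-KD at 0.71, 0.25 and 0.51 (Pearson, across 40 genes, which are not independent). With the replicate number as a block, 15 genes were called in Cdk9-KD against control and the calls among the 40 were the same.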
